A study of Mus musculus with 16 samples.

Results

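The genes described here are 42 genes of smooth muscle contraction and its cytoskeleton, chosen by name from the 55228 gene symbols of the count table. The choice was made with earlier results of these data known, so counts set beside shares of all genes are description and no independent test. All 42 were in the table and all 42 passed the filter on low counts, which left 18254 genes for testing. They were measured in mesenchyme of the lower urinary tract, the embryonic tissue outside the epithelial lining. The embryos were CD-1 mice, wild type and untreated, collected on embryonic day 16.5. The groups were male urethra, female urethra, male bladder and female bladder, with 4 libraries each. CD-1 is an outbred stock, and each library was a pool of the embryos of 1 sex from 1 litter, after trypsin digestion and removal of the epithelium with forceps. Replicates 1 to 4 are 4 litters, and each litter gave 1 library to each group. The urethra libraries are the pelvic part of the urethra. Libraries held 24447435 to 29698009 counted fragments in the urethra and 18577097 to 22293812 in the bladder, so that tissue and depth went together. Epithelium genes were detected in every library. The summed level of 24 epithelium genes was 2230 to 2958 CPM (counts per 1000000 counts) in male urethra, 886 to 2348 CPM in female urethra, 4827 to 5827 CPM in male bladder and 2361 to 4724 CPM in female bladder libraries. Female urethra replicates 3 and 4 had the lowest mean log2 CPM of these genes of all 16 libraries. The 24 genes did not differ between the tissues in 1 direction, 13 being called lower and 3 higher in the urethra. Of all tested genes 38.5% and 36.5% were. Upk3a averaged 45.5 CPM in urethra and 331 CPM in bladder libraries, and Epcam 114 and 91.7 CPM. Across the tissues their sum and mean are thus no pure measure of the amount of epithelium. No member fell below 59 counts in any library.

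Smooth muscle shortens when myosin is phosphorylated on its light chain by myosin light chain kinase, pulls on actin filaments, and passes the force through dense bodies, intermediate filaments and membrane plaques to the matrix. A phosphatase removes the phosphate and ends the contraction. The genes of this machinery are switched on together by serum response factor (SRF) and its cofactor myocardin, which act at a DNA element called the CArG box. In the bladder such muscle forms the detrusor, which empties the organ. The urethra has a smooth muscle layer of its own and, outside it, a sphincter of skeletal muscle.

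The mesenchyme of the urethra held far less RNA of this machinery than that of the bladder. The 42 genes took 0.835 to 0.994% of all counts in urethra libraries (median 0.891%), against 3.45 to 4.50% in bladder libraries (median 3.81%). At an adjusted p under 0.05, 40 of the 42 were lower and 2 were higher in the urethra, where 38.5% and 36.5% of all 18254 tested genes did so, 75% in either direction. With library totals alone as the scale, the higher genes were 60.8% of all those called, against 48.7% with TMM scaling, and 39 members were lower and 2 higher. Unless DESeq2 is named, adjusted p-values are from the edgeR quasi-likelihood test with Benjamini-Hochberg adjustment over all tested genes. Of the 42, 37 were lower by at least 2-fold, against 9.41% of all genes, and 21 by at least 4-fold, against 2.87% of all genes. The median log2 fold change, urethra over bladder, was −2.01 over the members and −0.03 over all tested genes. With the mean log2 CPM of the epithelium genes as a covariate (the epithelium mean) 40 members were lower and 1 higher. As said above, that mean is no pure measure of the amount of epithelium across the tissues. In bulk tissue fewer muscle cells and less of the RNA per cell cannot be told apart. The CPM ranges of the 8 urethra and 8 bladder libraries did not overlap for 39 of the lower members and 1 of the higher, and ranges parted in these directions for 20.3% and 22% of all tested genes. Itga8 and Svil are the 2 whose ranges overlapped. For the 39 lower members without overlap it follows that they were lower in 8 of 8 pairs of libraries from 1 litter and sex.

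**Figure D1:**
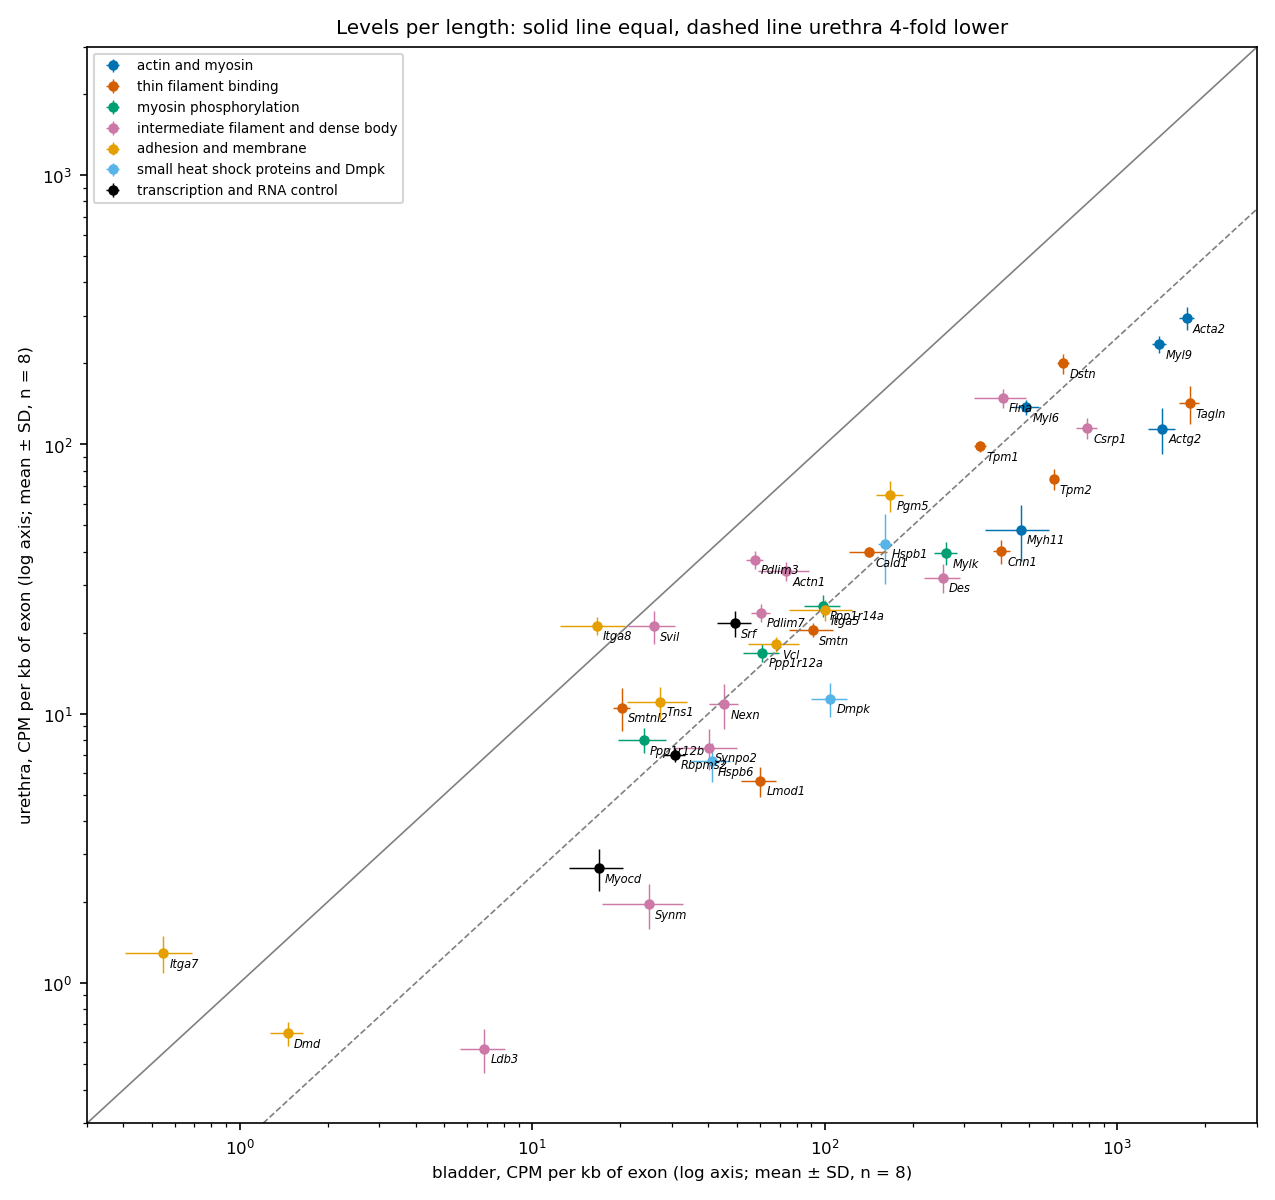
Level of each of the 42 genes as CPM per kilobase of exon, urethra on the vertical and bladder on the horizontal log axis (points are means of 8 libraries, bars SD). The solid line marks equal levels and the dashed line a level 4-fold lower in the urethra. Itga7 and Itga8 are the 2 points above the solid line, and 21 genes were called lower by at least 4-fold.

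The 3 members for transcription and RNA control, Myocd, Srf and Rbpms2, were lower in the urethra as well. Myocd encodes myocardin and had 13.7, 16.6 and 21.4 CPM in urethra libraries, against 83.9, 101 and 152 CPM in bladder libraries (lowest, median and highest of 8, as in all such triplets below). Its log2 fold change was −2.67 ± 0.13 (adjusted p = 2.84e-11), and each bladder library lay above every urethra library. Srf, which encodes the DNA-binding partner and is made in many cell types, had 52.3, 64.5 and 70.2 CPM in urethra libraries, against 122, 139 and 178 CPM in bladder libraries, with a smaller difference of −1.19 ± 0.08 (adjusted p = 8.87e-10). Rbpms2, an RNA-binding protein gene of visceral smooth muscle precursors, averaged 17.6 ± 1.05 CPM in urethra libraries, against 76.8 ± 6.75 CPM in bladder libraries (SD, n = 8 each), a difference of −2.12 ± 0.05. On GRCm38, Myocd lies on chromosome 11 from 65176561 to 65269989 and Srf on chromosome 17 from 46548329 to 46556175.

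RefSeq promoter sequences on GRCm38.p6 were at hand for 35 of the 42 members and were searched for the CArG box on both strands over the 250 bases before the start of transcription. The consensus searched was a pair of C, 6 letters that are each A or T, and a pair of G, which reads as the same consensus on the other strand. It occurred for 6 of the 35 members (17.1%) and for 439 of 27025 genes with a promoter sequence (1.62%). The members were Srf, Vcl, Myl9, Myl6, Ldb3 and Dmd. With 1 of the core letters C or G in place of A or T, it occurred for 8.33% of all genes and for 7 of 35 members (20%), which were Acta2, Dstn, Synm, Pdlim3, Itga5, Hspb6 and again Myl9. A match is a run of letters, and occupancy was not measured. The stretches below are shown because they hold the element itself. They are RefSeq sequence on GRCm38.p6, 5′ to 3′ on the strand of the gene, with the CArG box in capitals, and they lie outside annotated exons.
Srf (chr17:46556215-46556264, minus strand): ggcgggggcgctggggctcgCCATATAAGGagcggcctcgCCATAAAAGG
Vcl (chr14:20929151-20929200, plus strand): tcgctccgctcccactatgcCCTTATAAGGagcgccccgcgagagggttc
Myl9 (chr2:156775283-156775332, plus strand): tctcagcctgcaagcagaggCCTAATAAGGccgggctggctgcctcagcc
Ldb3 (chr14:34588687-34588736, minus strand): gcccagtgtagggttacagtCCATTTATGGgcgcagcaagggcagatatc
Dmd (chrX:82948752-82948801, plus strand): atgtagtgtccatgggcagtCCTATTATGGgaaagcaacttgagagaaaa

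The element began 82 and 62 bases before the start for Srf, the member that encodes the factor binding it, 227 bases for Vcl, 161 for Myl9, 35 for Ldb3 and 98 for Dmd. The differences of these 5 genes between the tissues ranged widely. On the log2 scale, urethra over bladder, they stood at −3.60 ± 0.12 for Ldb3, −2.55 ± 0.05 for Myl9, −1.91 ± 0.10 for Vcl, −1.19 ± 0.08 for Srf and −1.17 ± 0.08 for Dmd, and all 5 were called lower.

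All 5 actin and myosin genes were lower in the urethra, with a median log2 fold change of −2.55. For the count in each role, the share of all tested genes called lower was 38.5%. Acta2, the actin of vascular and visceral smooth muscle, had the highest level of all members per kilobase over the 16 libraries. It stood at 569.8, 653 and 727 CPM in urethra libraries, against 3489, 3756 and 4224 CPM in bladder libraries, a difference of −2.55 ± 0.06 (adjusted p = 8.08e-15). Actg2, the actin most typical of visceral smooth muscle, had 140.1, 171 and 236 CPM in urethra libraries, against 1887, 2185 and 2491 CPM in bladder libraries, and its difference of −3.63 ± 0.12 (adjusted p = 3.78e-13) was larger. The mean level in the urethra was thus 17.1% of that in the bladder for Acta2 and 8.05% for Actg2. The coding sequences of the actins are nearly identical, so that reads from shared stretches may be lost or misplaced, and both values are uncertain to that extent. Myh11, the smooth muscle myosin heavy chain, had 275, 337 and 529 CPM in urethra libraries, against 2668, 3233 and 5199 CPM in bladder libraries, and differed by −3.29 ± 0.15. Its counterparts on the light chain side were Myl9, the regulatory light chain that the kinase phosphorylates (−2.55 ± 0.05), and Myl6, an essential light chain that is also made outside muscle (−1.83 ± 0.06). Acta2 lies on chromosome 19 from 34241090 to 34255590, Actg2 on chromosome 6 from 83512905 to 83536265 and Myh11 on chromosome 16 from 14194535 to 14291372.

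The 9 genes for proteins that bind the thin filament were lower in the urethra too, but over a wide range. Tagln (transgelin), an actin-bundling protein, stood at 142 CPM per kb in the urethra, rank 5 of the members, against 1764 CPM per kb in the bladder, rank 1 and level with Acta2 within their SDs. In CPM it had 189, 286 and 357 CPM in urethra libraries, against 3103, 3659.6 and 3779.5 CPM in bladder libraries, a difference of −3.64 ± 0.09 (adjusted p = 1.16e-14). Close to it came Lmod1 (leiomodin), which starts actin filaments (−3.42 ± 0.09), Cnn1 (calponin), which damps the myosin motor (−3.32 ± 0.07), and Tpm2, a tropomyosin (−3.03 ± 0.05). A step lower stood Smtn (smoothelin, −2.15 ± 0.09), Cald1 (caldesmon, −1.83 ± 0.07), Tpm1, the other tropomyosin (−1.79 ± 0.04), and Dstn (destrin), which severs actin filaments in many cell types (−1.70 ± 0.05). The smallest difference of the 9 was that of Smtnl2, a smoothelin-like gene, at −0.96 ± 0.05.

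The enzymes that set the phosphorylation of myosin were lower in the urethra in 4 of 4 cases. Mylk, the light chain kinase, had 378, 449 and 502 CPM in urethra libraries, against 2668, 2892 and 3486 CPM in bladder libraries, and a difference of −2.71 ± 0.07 (adjusted p = 1.51e-14). The values of the phosphatase side were smaller. Ppp1r12a, its targeting subunit, stood at −1.86 ± 0.08, its relative Ppp1r12b at −1.60 ± 0.10, and Ppp1r14a, the inhibitor CPI-17 that is itself a target of protein kinase C, at −1.97 ± 0.08.

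Among the 11 genes of intermediate filaments and dense bodies all were lower in the urethra, with a median of −2.08. Synm (synemin), which joins desmin filaments to other structures, had the largest fall in the mean of both sexes, though Tagln, Actg2 and Ldb3 lay within its standard error and Tagln fell most in females (−3.73 ± 0.13, against −3.57 ± 0.28 for Synm). Synm had 12.4, 14.6 and 20.3 CPM in urethra libraries, against 119, 182 and 298 CPM in bladder libraries, and differed by −3.68 ± 0.20 (adjusted p = 2.51e-10). Ldb3, a PDZ-LIM protein gene best known from the striated Z-disc, was the lowest member per kilobase in the urethra and differed by −3.60 ± 0.12. Des (desmin), the intermediate filament of muscle, differed by −2.99 ± 0.09, Synpo2 (synaptopodin 2) by −2.43 ± 0.14 and Nexn (nexilin), which binds actin, by −2.08 ± 0.07. Of the exon bases of Nexn 7.5% lie in another gene on the same strand, where reads were not counted. Csrp1, a LIM protein of the actin cytoskeleton, had the highest level per kilobase in this role over all 16 libraries, though in the urethra it stood below Flna (115 and 149 CPM per kb). Csrp1 had 186, 228 and 252 CPM in urethra libraries, against 1379.6, 1504 and 1793 CPM in bladder libraries, and a difference of −2.77 ± 0.06 (adjusted p = 1.41e-15). The crosslinkers of actin that many cells make had smaller values, Flna (filamin A) at −1.45 ± 0.10 and Actn1 (alpha-actinin 1) at −1.12 ± 0.10. The PDZ-LIM genes Pdlim7 and Pdlim3 stood at −1.35 ± 0.05 and −0.62 ± 0.05.

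Svil (supervillin), which ties myosin and actin to the membrane, had the smallest fall of all members and the least firm one. It had 198, 211 and 282 CPM in urethra libraries, against 224, 257 and 366 CPM in bladder libraries, so that the ranges overlapped, and it was lower in the urethra in 7 of 8 pairs (−0.30 ± 0.10, adjusted p = 0.0112). The call was lost when library totals replaced TMM scaling (adjusted p = 0.13), without the filter on low counts (0.127), and without bladder male replicate 3 (0.0585) or bladder female replicate 3 (0.0577). Its value then lay between −0.17 and −0.24. With the epithelium mean as a covariate it was −0.56 (adjusted p = 2.05e-04).

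Genes of adhesion plaques and the membrane skeleton held the only members that were higher in the urethra, 2 of 7, beside 5 that were lower. Over all tested genes 36.5% were higher and 38.5% lower. Pgm5 (aciculin), a plaque protein related to phosphoglucomutase, had 194, 227 and 278 CPM in urethra libraries, against 528, 590.4 and 735 CPM in bladder libraries, and fell by a moderate amount (−1.38 ± 0.06, adjusted p = 6.83e-12). Itga5, the fibronectin receptor subunit, had 103, 118 and 136 CPM in urethra libraries, against 360.4, 479 and 678 CPM in bladder libraries, and fell most in this role (−2.04 ± 0.13, adjusted p = 1.03e-09). Vcl (vinculin) stood at −1.91 ± 0.10, the tensin gene Tns1 at −1.31 ± 0.13 and the X-linked dystrophin gene Dmd at −1.17 ± 0.08.

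The laminin receptor subunit gene Itga7 went against all of these. It had 7.27, 10.6 and 12.6 CPM in urethra libraries, against 3.3, 4.22 and 6.9 CPM in bladder libraries, with no overlap, and rose in the urethra by 1.24 ± 0.14 (adjusted p = 3.97e-07). Without overlap it was necessarily higher there in 8 of 8 pairs. Itga7 is a main integrin subunit of skeletal muscle, and the skeletal muscle genes of the region moved with it, 13 of 16 higher and 3 lower in the urethra (median 3.97). Their summed level ran from 168 to 300.9 CPM in urethra and from 89.4 to 131 CPM in bladder libraries. The fetal acetylcholine receptor gene Chrng had 49 to 119 counts in urethra libraries, but 0 counts in 4 of 8 bladder libraries and at most 2 in the others, and the myomaker gene Mymk 0 in 2 of 8. The part of skeletal muscle cells in the level of Itga7, or of other members that striated muscle also makes (Des, Ldb3, Synm, Nexn, Dmd, Dmpk), was not tested. Itga7 is also the member with the lowest counts, which limits its precision.

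Itga8, an integrin subunit that binds nephronectin, had 136, 159 and 169 CPM in urethra libraries, against 84.5, 114 and 172 CPM in bladder libraries. The ranges overlapped, because 2 of 4 female bladder libraries reached urethra levels, and the mean of both sexes rose by 0.38 ± 0.09 (adjusted p = 8.59e-04). It was higher in the urethra in 7 of 8 pairs. In males alone it rose by 0.64 ± 0.12 (adjusted p = 2.32e-04), and in females it differed by 0.11 ± 0.12 (adjusted p = 0.438). With the epithelium mean as a covariate the value over both sexes was 0.20 and not called (adjusted p = 0.104). Itga7 lies on chromosome 10 from 128933818 to 128958282 and Itga8 on chromosome 2 from 12106632 to 12301922.

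The last role holds the small heat shock proteins and a kinase. Dmpk, the myotonic dystrophy protein kinase gene, had 37.6, 49.6 and 60 CPM in urethra libraries, against 372, 458 and 556 CPM in bladder libraries, a difference of −3.20 ± 0.11 (adjusted p = 4.23e-13). Hspb6 (HSP20), whose phosphorylated form goes with relaxation, differed by −2.62 ± 0.11. Hspb1 (HSP27), which binds actin and is made in many cell types, epithelium among them, had 22.1, 47.4 and 56.8 CPM in urethra libraries, against 156, 164 and 183 CPM in bladder libraries and a difference of −1.95 ± 0.10 (adjusted p = 4.64e-11).

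**Figure D2:**
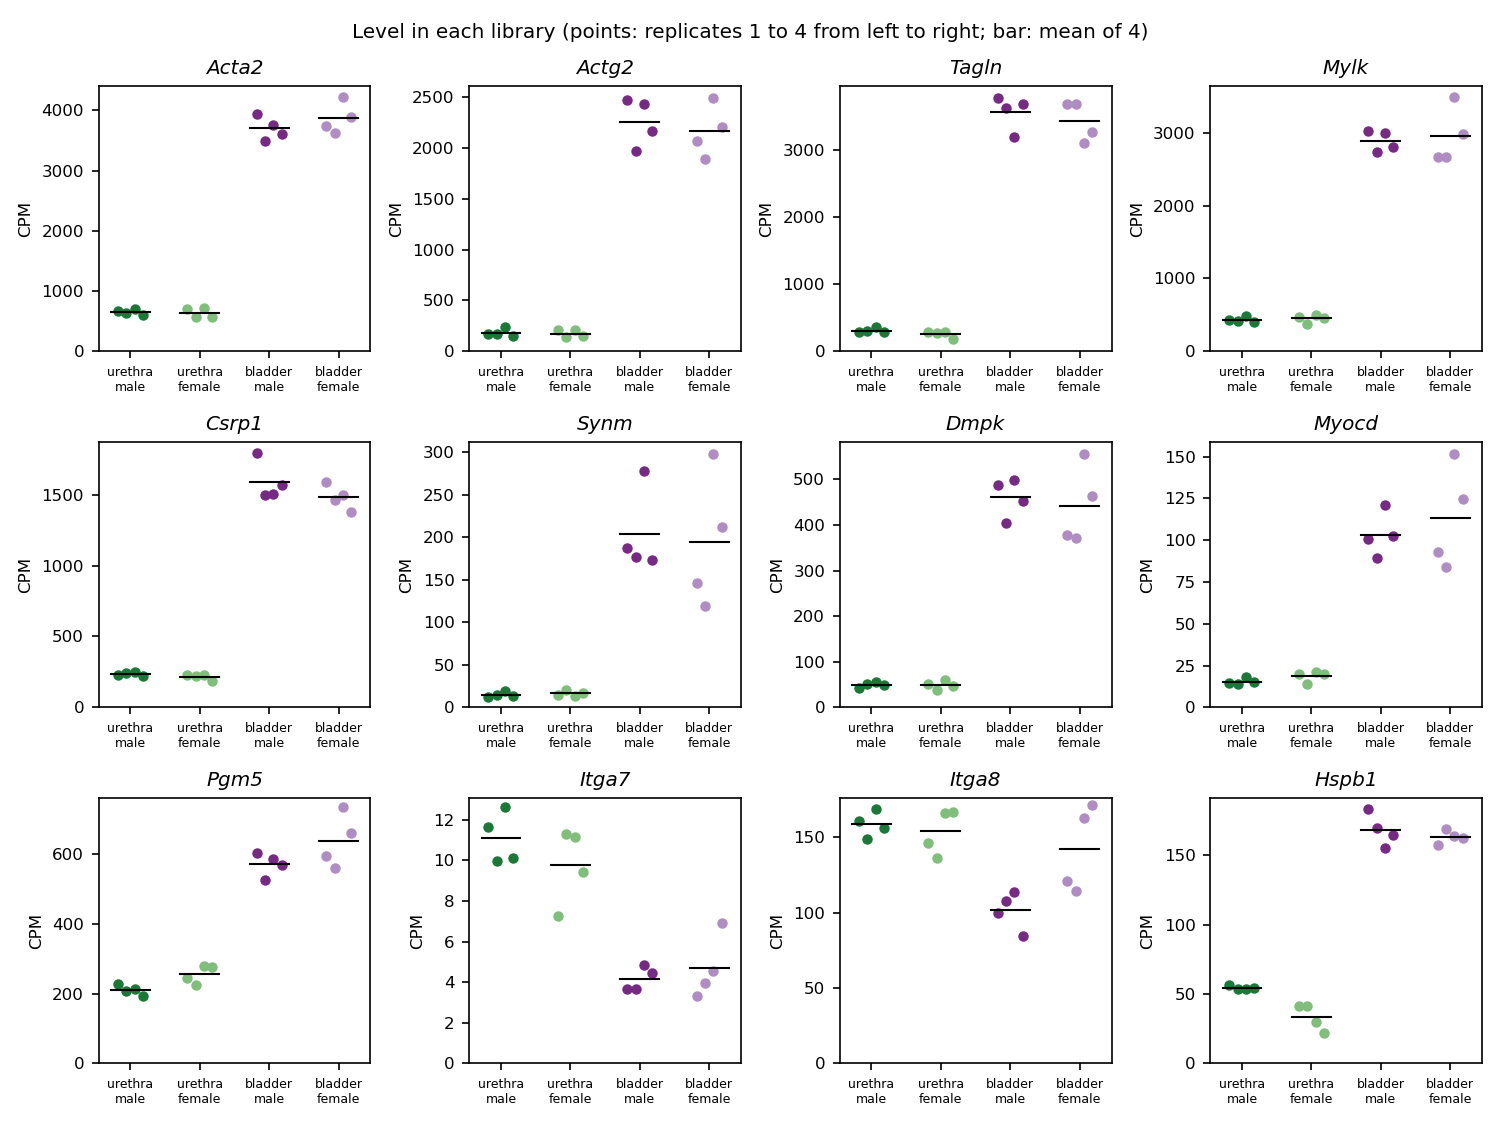
CPM of 12 members in each of the 16 libraries (points, replicates 1 to 4 from left to right, bars are means of 4, axes start at 0). Urethra and bladder are parted for every gene shown except Itga8, and Itga7 and Itga8 alone are higher in the urethra. Female urethra replicates 3 and 4 are the lowest of all for Hspb1, at 29.6 and 22.1 CPM.

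Both sexes showed the tissue difference. In males 40 of 42 members were lower and 2 higher in the urethra, where 32.6% and 31.4% of all tested genes were (64% in either direction), and in females 39 were lower and 1 higher, where 33.1% and 32.6% were (65.7%). The 2 members not called in females were Svil (−0.20 ± 0.14, adjusted p = 0.224) and Itga8. The median log2 fold change was −2.08 in males and −1.94 in females. The tests in males and in females use different libraries and share 1 estimate of the spread.

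**Figure D3:**
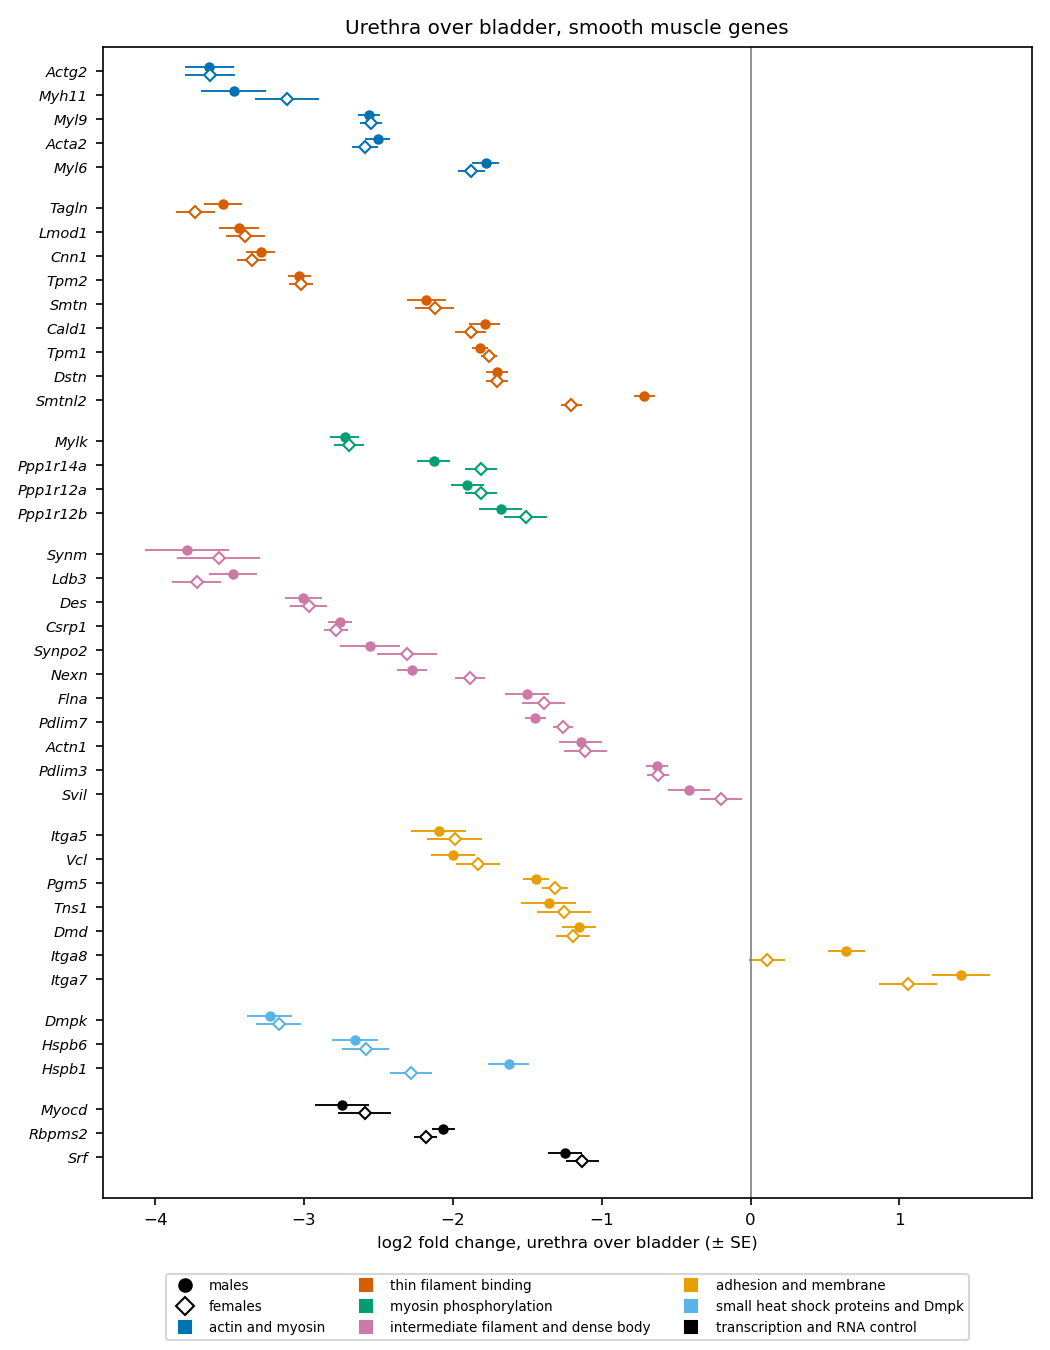
Log2 fold change of each member, urethra over bladder, in males (filled circles) and in females (open diamonds), with its approximate standard error, grouped by role. All genes lie left of 0 except Itga7 and Itga8, and Smtnl2, with −0.71 in males and −1.20 in females, is the 1 member whose tissue difference was called as different between the sexes.

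Only 1 member differed between the sexes in its tissue difference by the test of the interaction, 1 higher and 0 lower, where 0.537% and 0.131% of all tested genes were (0.668% in either direction). This was Smtnl2. In male urethra it had 49.3, 45.8, 44.7 and 47 CPM in replicates 1 to 4 and in female urethra 36.1, 35.9, 31.5 and 31.1 CPM. In male bladder it had 76.1, 82.2, 65.8 and 82.1 CPM and in female bladder 74.7, 79.4, 77.7 and 78.2 CPM. The male and female libraries thus did not overlap in the urethra and did in the bladder, and the interaction was 0.49 ± 0.10 (adjusted p = 0.032). It lay near the threshold. The adjusted p was 0.0836, 0.0633 and 0.0695 without male urethra replicates 1, 2 and 4, 0.0819 and 0.07 without female urethra replicates 3 and 4, and 0.199 without both of these. The value was then 0.39 to 0.50. With blocks by litter and sex in the fit, which compare the tissues within a pool of embryos, Itga8 (0.52 ± 0.10, adjusted p = 0.0402) and Nexn (−0.40 ± 0.08, adjusted p = 0.0404) were called beside Smtnl2, so that the count was 2 higher and 1 lower. At an unadjusted p under 0.05 the interaction reached 4 of 42 members and 8.38% of all tested genes.

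Within a tissue, calls between males and females were few among the members, as they were among all tested genes. In the urethra 2 members were higher and 1 lower in males, where 3.97% and 2.42% of all tested genes were (6.39% in either direction). Smtnl2, whose male and female ranges did not overlap, was higher in males by 0.47 ± 0.07 (adjusted p = 5.48e-04), and thus in 4 of 4 litters. Hspb1 had 56.8, 53.4, 53.4 and 54.6 CPM in male urethra and 41.3, 41.4, 29.6 and 22.1 CPM in female urethra, with no overlap, and was higher in males by 0.70 ± 0.14 (adjusted p = 0.00536). Nexn had 35.6, 36.6, 32 and 35.5 CPM in male urethra and 49.1, 40.5, 53.4 and 49 CPM in female urethra, again with no overlap, and was lower in males (−0.46 ± 0.10, adjusted p = 0.00912). The median of the 42 was −0.06, against −0.01 over all genes.

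The epithelium genes as a list were also higher in male than in female urethra. Their log2 fold changes ran from 0.23 (Krt14) to 1.08 (Krt7), with a median of 0.60. In the bladder they ran from 0.38 (Krt14) to 0.82 (Upk2), with a median of 0.58 and 0 genes called. The part of epithelium in the calls of Smtnl2, Hspb1 and Nexn was not tested. Of the 24 epithelium genes 3 were called higher in male urethra and 0 lower, where 3.97% and 2.42% of all tested genes were. Of 9 mesothelium genes 1, Msln, was called higher. The epithelium mean was 6.42, 6.11, 6.24 and 6.53 log2 CPM in male urethra replicates 1 to 4 and 6.17, 6.09, 5.33 and 4.75 in female urethra. The 2 female libraries lowest in it were also the 2 lowest in Hspb1. With that mean as a covariate Hspb1 was at 0.45 (adjusted p = 0.0578), Nexn at −0.29 (0.172) and Smtnl2 still called at 0.40 (0.0128). Without female urethra replicates 3 and 4 Hspb1 was at 0.40 (0.00358), against 0.70 with all libraries, Smtnl2 at 0.37 (0.0266) and Nexn at −0.36 (0.175). With the litter as a replicate block Myh11 (−0.42 ± 0.12, adjusted p = 0.0452) and Pgm5 (−0.28 ± 0.07, adjusted p = 0.0247) were also called lower in males, 3 lower members in all. Pgm5 was lower in males in 4 of 4 litters. It was also called by DESeq2 (adjusted p = 0.0312) and, by edgeR without the block, when female urethra replicate 2 (0.0301) or female bladder replicate 3 (0.0452) was left out.

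In the bladder 0 members were called between the sexes by edgeR, where 0.247% of all tested genes were higher and 0.334% lower in males (0.581% in either direction). At an unadjusted p under 0.05 there was 1 of 42, Itga8, where 12.4% of all tested genes were under it. It had 100.1, 108, 114 and 84.5 CPM in male bladder and 121, 114, 163 and 172 CPM in female bladder, lower in males in 4 of 4 litters (−0.49 ± 0.12, adjusted p = 0.0795). The highest male library (113.8 CPM) lay just below the lowest female one (114.3 CPM). Itga8 was the 1 member called lower in males by DESeq2 (adjusted p = 0.0137) and by edgeR without bladder female replicate 2 (0.0391). The epithelium mean was 6.76, 7.01, 7.10 and 6.97 log2 CPM in male bladder replicates 1 to 4 and 6.64, 6.72, 5.82 and 6.22 in female bladder. The 2 female libraries lowest in it were the 2 highest in Itga8. With the epithelium mean as a covariate 0 members were called, the same count as in the edgeR fit without it. The part of epithelium in the level of Itga8 was not tested. The other 41 members lay between −0.17 and 0.21.

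**Figure D4:**
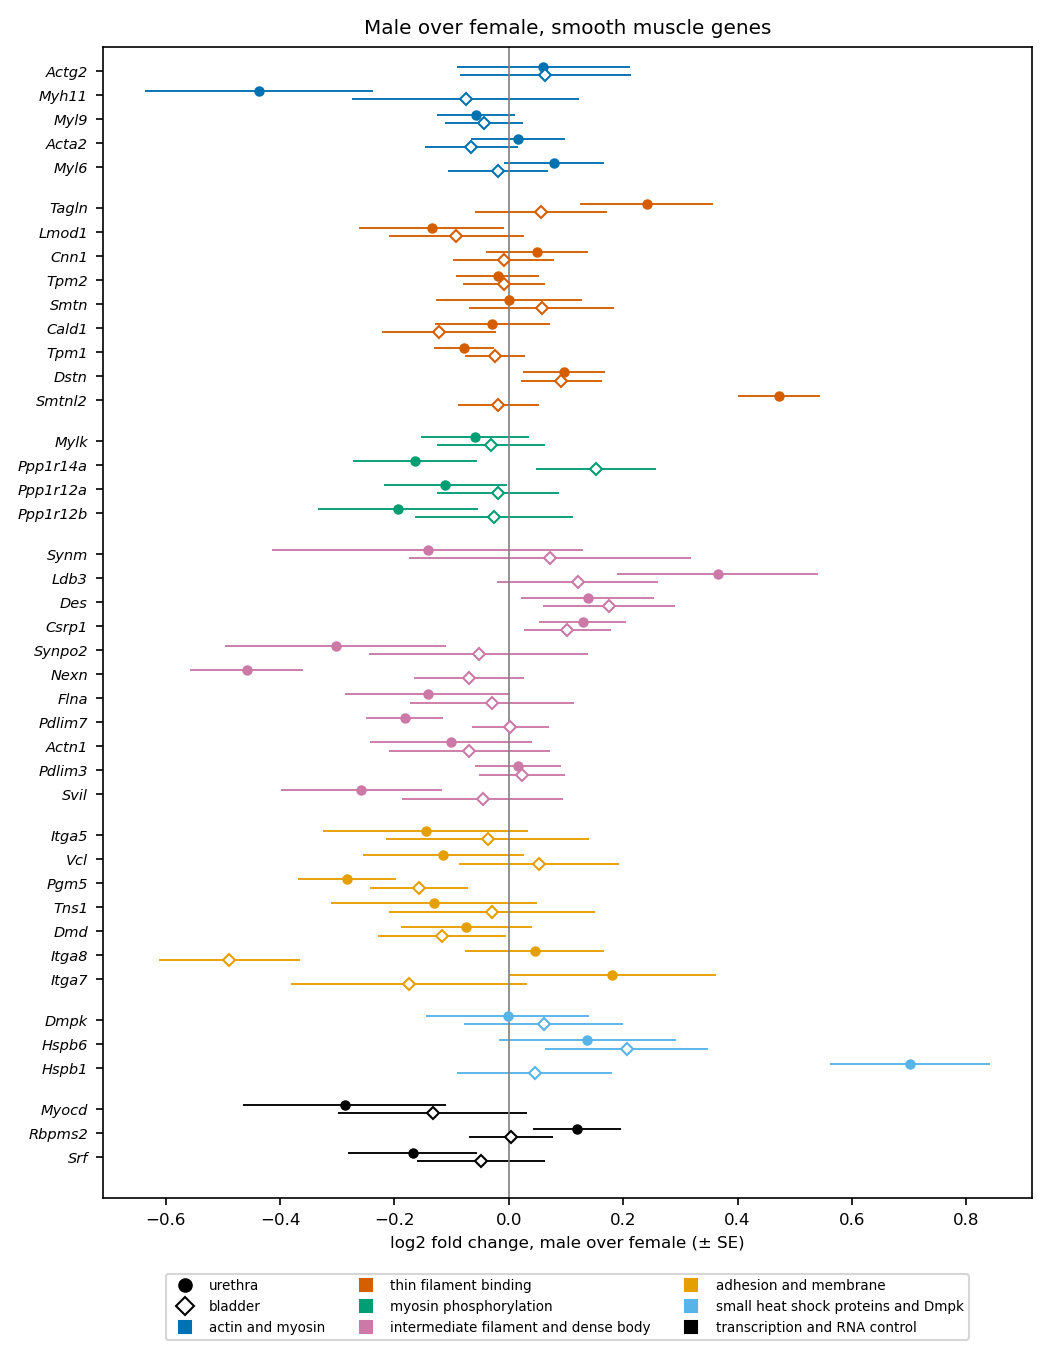
Log2 fold change of each member, male over female, in urethra (filled circles) and bladder (open diamonds), with its approximate standard error. The scale is far narrower than for the tissue difference, from −0.49 for Itga8 in the bladder to 0.70 for Hspb1 in the urethra.

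The members also varied together from litter to litter. Their mean log2 CPM was highest in replicate 3 in each of the 4 groups. It was 6.71, 6.66, 6.78 and 6.61 in male urethra replicates 1 to 4, and 6.74, 6.61, 6.83 and 6.68 in female urethra. It was 8.82, 8.64, 8.84 and 8.67 in male bladder and 8.62, 8.56, 9.0 and 8.81 in female bladder. Replicate 3 held the highest value of a group for 25 of 42 members in male urethra, 29 in female urethra, 18 in male bladder and 33 in female bladder. Over all tested genes it did so for 29.6, 15.6, 30.8 and 28.6% in the same groups. In male bladder replicate 1 held the highest value for more members, 22. Replicate 2 held the lowest value for 89 of the 168 sets of 1 gene in 1 group, and replicate 3 for 14. The share of all tested genes with their lowest value in each replicate was not counted. The 168 sets come from the same 4 litters and are not independent. Every bladder library lay above every urethra library in the mean log2 CPM of the members. The epithelium mean of replicate 3 was the highest of the group in male bladder (7.10) and the lowest in female bladder (5.82). In male urethra (6.24) and female urethra (5.33) that of replicate 3 was neither the highest nor the lowest. The pericyte and vascular smooth muscle mean was highest in replicate 3 in all 4 groups (5.48 and 5.54 in male and female urethra, 5.46 and 5.60 in male and female bladder). The part of epithelium or of mural cells in the litter pattern was not tested. Tagln went against the pattern, with its lowest value in replicate 3 in both bladder groups (3779.5, 3632, 3193 and 3691 CPM in male and 3693, 3688, 3103 and 3271 CPM in female bladder). Within groups the median SD of a member's log2 CPM was 0.0945 in male urethra, 0.162 in female urethra, 0.146 in male bladder and 0.23 in female bladder, against 0.108, 0.159, 0.154 and 0.168 over all tested genes in the same groups.

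**Figure D5:**
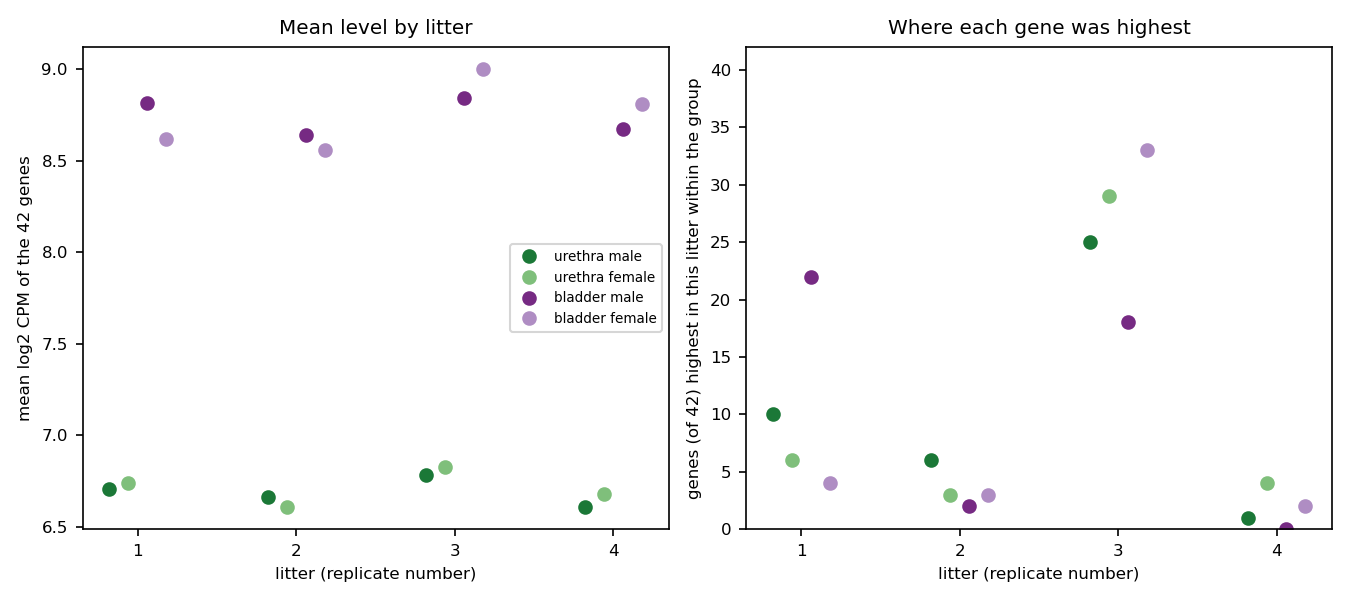
Left, mean log2 CPM of the 42 genes by litter in each group. Right, number of the 42 genes whose highest value within the group lay in that litter (points are the 4 groups, in the colours of the left panel). Replicate 3 is highest on the left in each group, from 6.78 in male urethra to 9.0 in female bladder.

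Lists of genes around the contractile machinery had medians nearer to 0. For the counts called in each list below, the shares over all tested genes were 38.5% lower and 36.5% higher in the urethra. Among 15 SRF partners and further regulators, 12 fell and 1 rose in the urethra (median −0.33, against −0.03 over all genes). Gata6, a transcription factor of smooth muscle differentiation, averaged 32.7 ± 5.75 CPM in urethra libraries, against 168 ± 22.5 CPM in bladder libraries (SD, n = 8 each) and led those that were lower (−2.36 ± 0.09), followed by the LIM gene Fhl2 (−2.01 ± 0.07). Of the actin-sensing SRF cofactors, Mrtfb was higher in the urethra (0.37 ± 0.07), and Mrtfa averaged 55.1 ± 4.17 CPM in urethra libraries, against 56.1 ± 4.26 CPM in bladder libraries (adjusted p = 0.674).

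Of 15 genes of contraction signalling 13 were lower and 2 higher (median −0.36), where 38.5% and 36.5% of all tested genes were. The cGMP phosphodiesterase gene Pde5a (−1.24 ± 0.07) and Ppp1cb, the catalytic subunit of myosin phosphatase (−1.15 ± 0.04), were the lowest. The 2 higher genes encode the subunits of the nitric oxide receptor guanylate cyclase, whose product cGMP relaxes smooth muscle. Gucy1a1 averaged 242 ± 44.5 CPM in urethra libraries, against 67.2 ± 11.4 CPM in bladder libraries (1.84 ± 0.07) and Gucy1b1 72.4 ± 9.33 CPM in urethra libraries, against 34.3 ± 3.42 CPM in bladder libraries (1.07 ± 0.07, SD, n = 8 each). Gucy1a1 was also lower in male than in female urethra (−0.46 ± 0.09, adjusted p = 0.006).

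A list of 16 relatives of the members, non-muscle forms but for the muscle cofilin gene Cfl2, had 14 genes lower and 1 higher, with a median of −0.42. Side by side, in log2 fold change, Acta2 stood at −2.55 ± 0.06 and the cytoplasmic actin Actb at −0.70 ± 0.04, Myh11 at −3.29 ± 0.15 and the non-muscle myosins Myh9 and Myh10 at −0.69 ± 0.06 and 0.03 ± 0.09. Cnn1 stood at −3.32 ± 0.07, Cnn2 at −1.49 ± 0.05, the lowest of this list, and Cnn3 at 0.62 ± 0.04, its 1 higher gene. Next to Cnn2 came Cfl2 (−1.05 ± 0.04). Of 20 genes of adhesion plaques and the dystrophin complex 17 were lower and 1 higher (median −0.61), with Lims2, a partner of integrin-linked kinase (−2.78 ± 0.10), lowest and the sarcoglycan Sgcd (0.41 ± 0.10) higher.

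Of 8 pericyte and vascular smooth muscle genes 4 rose and 4 fell in the urethra, where 36.5% and 38.5% of all tested genes did so. Kcnj8 (1.56 ± 0.08) and Pdgfrb (1.38 ± 0.12) rose most, and Ndufa4l2 (−2.29 ± 0.12) and Higd1b (−1.48 ± 0.19) fell most. The median of the 8 was 0.39, and their summed level was 576 to 777 CPM in urethra and 449 to 661 CPM in bladder libraries. Of the 24 epithelium genes 13 were lower and 3 higher (median −0.52), beside the same 38.5% and 36.5% of all tested genes. Upk3a (−2.84 ± 0.29) and Upk2 (−2.41 ± 0.25) were lowest and Krt14 (1.78 ± 0.29) and Gata3 (0.85 ± 0.11) highest. Of 9 mesothelium genes 8 were lower, led by Cldn15 (−4.01 ± 0.22) and Muc16 (−3.81 ± 0.30). Their median of −3.01 was a larger fall than the −2.01 of the 42 members. Mesothelium sums were 215 to 503 CPM in urethra and 898 to 1638 CPM in bladder libraries. Of the skeletal muscle genes Chrng (6.30 ± 0.36) and Myod1 (5.60 ± 0.22) were the highest in the urethra and Cav3 (−3.13 ± 0.13) and Tnnt3 (−2.27 ± 0.14) the lowest. The part of these cell types in the levels of the members was not tested.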

How the data were processed

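Poly(A) RNA of 16 libraries was sequenced as strand-specific 100 bp paired ends from 250 ng of total RNA, per the labels' protocols. The deposited counts are read pairs per gene symbol made with featureCounts (Subread 1.6.3, strand setting 2, without multimapping reads or reads in more than 1 gene), per the file headers. Alignment used HISAT2 2.1.0 and GRCm38, per the submitters' processing notes; no source used here gives the annotation release. A second deposited table, counts scaled by DESeq2, was not used. The exon length in the deposited table, per the file headers, gave levels per kilobase, the only scale on which genes are compared.

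The members, roles and lists were chosen with earlier results of these data known. All 55228 symbols entered 1 edgeR 4.0.16 fit (R 4.3.3, limma 3.58.1) of the 4 groups with TMM, filterByExpr, robust dispersions and the quasi-likelihood test. Adjusted p-values are Benjamini-Hochberg over 18254 genes, with a threshold of 0.05. The standard error printed is approximate, the absolute log2 fold change over the root of F. CPM use TMM-scaled totals, and log2 CPM a prior count of 2. The procedure was tested on simulated data. Libraries of a group were no copies of each other (chi-squared per degree of freedom 4.91 to 37.2 over 24 pairs). The labels make each replicate number a litter, so libraries are paired, but the main fit held no litter term. The deviations of bladder and urethra from 1 litter and sex correlated at 0.092 to 0.41 (median 0.19). Those of 1 sex from different litters correlated at −0.40 to 0.35 (median −0.065). The litter block was an alternative, as were DESeq2 1.42.0, other scalings, no filter, an epithelium covariate and left-out libraries. Named members were, per role, the one highest per kilobase and the one with the largest called fold change, all that were higher in the urethra, those called in the interaction, and the 3 with the smallest p between the sexes; per list, the 2 largest rises and falls, of which 1 is not reported here. The other members are given by their fold change. Tables and figures used pandas 2.3.3 and matplotlib 3.10.9 (Python 3.11.15).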

Additional observations from a re-analysis of the deposited data

Results flagged for a closer look

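In 3 of 168 sets of 1 member in 1 group, 1 library stood apart from the other 3 by Dixon's criterion, where chance alone gives about 1 set in 20. Tagln had a log2 CPM of 7.57 in female urethra replicate 4, below 8.09 in the nearest library. Synm had 8.12 in male bladder replicate 3, above 7.55 in the nearest library. Ldb3 had 1.67 in male urethra replicate 4, below 2.06 in the nearest library.

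The tissue difference of Smtnl2 differed between males and females by the test of the interaction, 0.49 on the log2 scale (males minus females, edgeR adjusted p = 0.032). The call was lost without any 1 of 5 urethra libraries (adjusted p 0.0633 to 0.0836) and without female urethra replicates 3 and 4 together (0.199).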

How the results depend on the processing

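The count of members lower in the urethra was 39 or 40 in males, in females and over both sexes under every alternative tried. Library totals alone placed the median of all genes for urethra over bladder at 0.11, against −0.03 with TMM. Svil, not called in females, was called there with the epithelium covariate (−0.47, adjusted p = 0.00601). With the epithelium covariate 1 member was higher over both sexes, and 1 was higher and 0 lower in male urethra. Lower members in male urethra numbered 2 with DESeq2, 3 with the litter as a replicate block, 0 without female urethra replicates 3 and 4, and 1 to 2 with single libraries left out. In the bladder DESeq2 called 1 lower member, and leaving out single libraries gave 0 to 1. The interaction had 2 higher and 1 lower members with blocks by litter and sex, 2 higher with the covariate, 0 without female urethra replicates 3 and 4, and 0 to 1 higher with single libraries left out. The cause of these changes was not tested. No member changed its direction where it was called, and the blocks changed no call beyond those given with the results. Depth limits Itga7 most, with 59 counts in its lowest library.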

Other observations

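The levels of members relative to each other also differed between the tissues. Per kilobase of exon, Actg2 stood at 0.385 ± 0.0432 times Acta2 in urethra libraries (0.344 to 0.474) and at 0.822 ± 0.0582 times Acta2 in bladder libraries (0.733 to 0.91, SD, n = 8 each). Tpm2 stood at 0.755 ± 0.0558 times Tpm1 in the urethra (0.685 to 0.823) and at 1.78 ± 0.061 times Tpm1 in the bladder (1.70 to 1.90). The ranges of the tissues did not overlap for either ratio. Myocd stood at 0.122 ± 0.0139 times Srf in the urethra (0.0979 to 0.137) and at 0.341 ± 0.0456 times Srf in the bladder (0.284 to 0.40), again without overlap. The ratio of Myh11 to Acta2 was 0.163 ± 0.0324 in the urethra (0.133 to 0.21) and 0.269 ± 0.0528 in the bladder (0.212 to 0.356), where the ranges parted by a narrow gap. These ratios were chosen after the levels had been seen, they carry no test, and reads shared among actins or among tropomyosins make the first pair uncertain.

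Of the summed CPM of the 42 genes, Flna made up 16.3% in the urethra and 9.37% in the bladder. Acta2 made up 7.54% in the urethra and 9.32% in the bladder. These shares compare each gene between the tissues only, since CPM grow with gene length. Per kilobase Acta2 stood above Flna in the urethra (295 and 149 CPM per kb) and in the bladder (1725 and 405 CPM per kb). The order of the genes per kilobase also differed between the tissues. Dstn, which many cell types make, held rank 3 in the urethra (200.3 CPM per kb) and rank 6 in the bladder (652 CPM per kb). Flna held rank 4 in the urethra and rank 10 in the bladder, and Actg2 rank 8 in the urethra and rank 3 in the bladder.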
